A study of Homo sapiens with 132 samples.

Results

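Homologous recombination and Fanconi repair genes were described here as a set of 35 genes, chosen by their symbols and found by Ensembl identifier among the 65217 identifiers of each count file. All 35 had an identifier, and 34 had enough counts to be tested. RAD51D, a paralog of the strand exchange recombinase, held 3 counts over all libraries and was at 0 in 129 of them, so it is listed here without a level and was not tested. RNA was sequenced from 4 established gastric cancer lines (NCI-N87, MKN7, MKN1 and Hs746T) that were left untreated or treated for 4 h or 24 h. All of them received trastuzumab (Tra, 5 µg/ml, an antibody against HER2), afatinib (Afa, 0.5 µM, a covalent inhibitor of the EGFR family kinases) or Tra + Afa, and MKN1 and Hs746T cells also received EGF (5 ng/ml), cetuximab (Cet, 1 µg/ml, an antibody against EGFR) or EGF + Cet. Each of the 44 conditions had 3 numbered replicates, and no vehicle is named for the untreated cells. The study names DMSO as the solvent of afatinib, and no library is labelled as DMSO alone. Effects of afatinib and of its solvent therefore cannot be told apart here. Nothing in the labels ties these replicates to separate cultures, so p-values measure the spread between these libraries, which may be technical.

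Homologous recombination repairs a broken DNA molecule by copying an intact sister. The ends are cut back to single strands, BRCA1, PALB2 and BRCA2 load the recombinase onto them, and helper proteins and helicases finish the exchange. The Fanconi pathway uses many of the same proteins to undo links between DNA strands: a core complex of FANC proteins marks the pair FANCD2 and FANCI with ubiquitin, and the checkpoint kinases ATM, ATR, CHEK1 and CHEK2 report the damage. Many of these genes are known to be transcribed most in S phase, and E2F factors are known regulators of several of them.

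The promoters of 4 genes are shown because they span the range of the response described below: EXO1 and XRCC2 had the largest falls after afatinib among nuclease and paralog genes, FANCC fell little, and RAD50 did not pass the test. Each stretch runs from 200 bases before to 30 bases after the RefSeq start (GRCh38.p14), 5′ to 3′ on the strand of the gene, and capitals mark matches to an E2F octamer (TTTCCCGC, TTTCGCGC, TTTGCCGC or TTTGGCGC, searched on both strands).
EXO1 (chr1:241848004-241848233, plus strand): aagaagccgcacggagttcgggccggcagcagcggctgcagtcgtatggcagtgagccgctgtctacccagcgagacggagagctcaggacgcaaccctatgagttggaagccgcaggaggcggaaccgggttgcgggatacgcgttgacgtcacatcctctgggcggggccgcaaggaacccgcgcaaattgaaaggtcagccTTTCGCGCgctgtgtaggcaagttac
XRCC2 (chr7:152676112-152676341, minus strand): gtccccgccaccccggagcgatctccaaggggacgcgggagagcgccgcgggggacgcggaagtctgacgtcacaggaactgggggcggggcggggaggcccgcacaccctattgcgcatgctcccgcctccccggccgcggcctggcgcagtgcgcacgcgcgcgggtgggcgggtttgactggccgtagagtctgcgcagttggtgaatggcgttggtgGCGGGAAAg
FANCC (chr9:95317680-95317909, minus strand): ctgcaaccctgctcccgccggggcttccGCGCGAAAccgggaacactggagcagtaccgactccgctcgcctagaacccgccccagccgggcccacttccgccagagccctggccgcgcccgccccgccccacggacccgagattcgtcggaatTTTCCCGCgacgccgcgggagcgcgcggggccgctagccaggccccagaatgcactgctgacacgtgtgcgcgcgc
RAD50 (chr5:132556777-132557006, plus strand): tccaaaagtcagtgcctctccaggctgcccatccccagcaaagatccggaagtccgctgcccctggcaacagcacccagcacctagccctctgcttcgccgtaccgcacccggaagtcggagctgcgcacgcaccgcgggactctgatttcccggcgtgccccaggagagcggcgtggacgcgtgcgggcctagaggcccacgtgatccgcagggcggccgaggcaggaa

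Promoter windows of 300 bases (250 before to 50 after the start) were found for 32 of the 35 genes. An E2F octamer was in a window of 7 of them, EXO1, FANCA, FANCC, FANCD2, MSH6, TOPBP1 and XRCC2, which is 21.9% of the genes against 3.99% of the 27305 gene symbols with a window. With only the 250 bases before the start, FANCA and FANCC were left (6.25% against 3.40%), since the matches of the other 5 genes overlapped or followed the start. A CCAAT box was in a window of 15 genes (46.9% against 39.7% of all symbols), and the cell cycle element TTTGAA or TTCGAA was in those of ATM, BRIP1 and FANCC (9.38% against 19.5%). These motifs were also searched on both strands, none of them contains another, and a match is a description of the sequence and not a binding site. The 32 genes had 46 windows and the 27305 symbols had 35116. The shares were matched neither for windows per gene nor for base composition, so they only describe the sequences. Over the 7 genes with an octamer, the median log2FC after 24 h of afatinib in NCI-N87 cells was -1.72 (range -2.94 to -0.42). Over the 24 tested genes with a window and no octamer it was -1.21 (range -2.88 to 0.30). The -2.88 is that of FANCB, which fell more than XRCC2, whose promoter is shown above.

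The libraries held 25832557 to 69434151 counts on genes, and 3 counts, taken as the floor, were 0.0432 CPM in the deepest and 0.116 CPM in the shallowest library (counting error only). CPM here are counts scaled by TMM-normalized library size. The epithelial keratins KRT8 and KRT18 were at 117 CPM or more in every library, the cadherin CDH1 was high in NCI-N87 and MKN7 cells (medians 256 and 243 CPM) and close to absent in MKN1 and Hs746T cells (medians 1.998 and 0.785 CPM), and the T cell marker CD3E reached at most 0.104 CPM. ERBB2, which encodes HER2, had a median of 13690 CPM in NCI-N87, 4683 in MKN7, 138.5 in MKN1 and 84.3 in Hs746T cells. Reads of some members may include those of an overlapping gene, or may lack reads shared with one. The counter and its strand setting are not given in the sources used here, so levels of such genes may be too high or too low. On the member's own strand, STT3A overlaps CHEK1 (mean over all libraries 264 CPM) and the long noncoding RNA AC060780.1 overlaps BRCA1 (14.0 CPM), and RAD54L, XRCC3, FANCA, FANCI, MSH6, NBN and BRCA1 are among those with a partner on the other strand.

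In untreated cells at 24 h the repair genes were expressed in all 4 lines, and their levels differed most for RAD51B, BRIP1 and FANCE. Per kilobase of exon, the median level over the 34 genes was 7.30 CPM in NCI-N87, 7.48 in MKN7, 4.69 in MKN1 and 7.54 in Hs746T cells. The highest level per kilobase was that of FANCL in NCI-N87 (27.3) and MKN7 (23.7), of FANCG in MKN1 (25.1) and of NBN in Hs746T cells (40.2), and the lowest was that of XRCC3 in the first 2 lines (0.523 and 0.930) and of MSH6 in the other 2 (0.674 and 0.778).
RAD51B, a paralog that helps to assemble the recombinase filament, was at 57.4, 65.4 and 51.2 CPM in MKN7, 35.7, 47.8 and 49.4 in Hs746T, 17.7, 19.8 and 19.6 in NCI-N87 and 7.61, 7.497 and 7.30 in MKN1 cells. These 4 groups of 3 libraries did not overlap, and each neighbouring pair in this order passed the test, the closest being MKN7 over Hs746T (log2FC 0.39). BRIP1, the helicase that partners BRCA1, was highest in Hs746T cells, lowest in MKN1 cells (log2FC of MKN1 against Hs746T -2.75, SE 0.15) and did not differ beyond the spread between NCI-N87 and MKN7 cells (log2FC -0.12, SE 0.14). FANCB, a core complex subunit, ranged only 1.21-fold per kilobase over the lines.
Of the 34 genes, 23 differed between untreated NCI-N87 and MKN7 cells (of all genes tested 65.6%), 27 between NCI-N87 and MKN1 (68%), 26 between NCI-N87 and Hs746T (68.4%), 20 between MKN7 and MKN1 (64.5%), 26 between MKN7 and Hs746T (66.6%) and 22 between MKN1 and Hs746T cells (68.6%), all in edgeR at an adjusted p below 0.05. Of the 27 genes that differed between NCI-N87 and MKN1 cells, 22 were higher in NCI-N87 (32.8% of all genes tested were higher and 35.1% lower), and 19 of 27 with the replicate block. Of the 20 between MKN7 and MKN1 cells, 18 were higher in MKN7 (31.2% and 33.3%), against 15 of 20 with scaling by library size alone and 19 of 24 with the block. Of the 22 between MKN1 and Hs746T cells, 18 were lower in MKN1 (32.5% of all genes were lower and 36.1% higher), while the block gave 16 lower and 9 higher. For these block counts, it was not checked whether replicate numbers pair libraries of different lines.

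Afatinib for 24 h lowered most of the repair genes in NCI-N87 cells. Of the 34 tested, 30 were lower than in untreated cells (of all 19078 genes, 31% were lower) and 1 was higher (31.5%), and 22 were regulated downward, that is with an adjusted p below 0.05 and a log2FC below -1 (11.5%). The median log2FC of the 34 genes was -1.45, against 0.03 over all genes. In 31 genes the 3 afatinib libraries all lay below the 3 untreated ones, in FANCF they lay above, and in RAD51B and ATM the groups overlapped. How many of all genes had libraries that stayed apart was not counted in any line, so such counts only describe the repair genes. These are bulk samples, in which fewer cells expressing a gene and less RNA per cell cannot be told apart.
Genes of DNA replication and mitosis moved in the same samples. All 29 tested genes of replication licensing and the fork were lower in NCI-N87 cells (median log2FC -1.92), as were 23 of 24 mitosis genes (median -1.06), and their part in the fall of the repair genes was not tested. Scaling by library size alone raised the median of all genes by 0.26 and left 28 repair genes lower and 18 regulated, with a median of -1.19 for the repair genes and 0.29 for all genes.

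**Figure D1:**
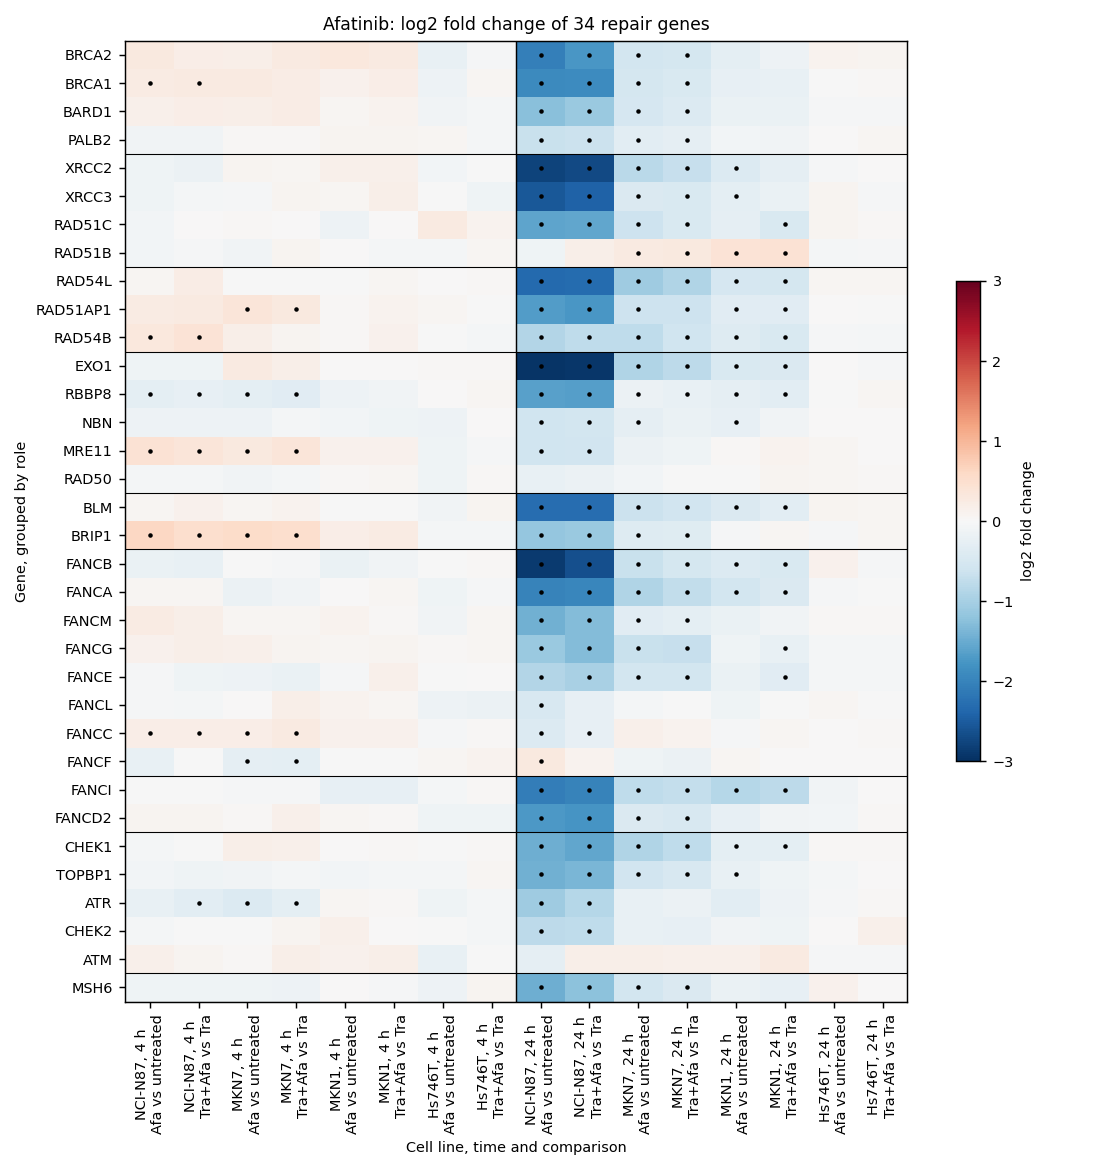
Colours give the log2 fold change of the 34 tested repair genes (rows, grouped by role in the order of the text) for afatinib against untreated cells and for Tra + Afa against Tra (columns, by cell line, 4 h at the left and 24 h at the right), and dots mark an adjusted p below 0.05 in edgeR. Nearly all rows are blue in NCI-N87 cells at 24 h (30 of 34 lower), fainter in MKN7 (25) and MKN1 cells (14), and no dot is present in Hs746T cells.

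Among the BRCA1 complex and the loaders of the recombinase, all 4 genes were lower in NCI-N87 cells. BRCA2 (ENSG00000139618, GRCh38 chromosome 13, 32315474 to 32400266), which carries the recombinase to single-stranded DNA, was at 56.2, 71.4 and 90.6 CPM in untreated and 16.1, 19.8 and 17.7 CPM in afatinib-treated cells. The highest treated library was well below the lowest untreated one, and the log2FC was -2.06 (SE 0.16, adjusted p 3.92e-10). PALB2, which bridges BRCA1 and BRCA2, fell least, from 25.6, 27.0 and 28.1 CPM to 16.4, 17.6 and 18.0 CPM (log2FC -0.67, SE 0.07, adjusted p 5.25e-08). BRCA1, an E3 ligase subunit that promotes end resection, was 3.75-fold lower, and its partner BARD1 2.38-fold.
The paralogs of the recombinase were split. XRCC2 (ENSG00000196584, chromosome 7, 152644779 to 152676165) was at 32.1, 38.6 and 37.1 CPM in untreated and 4.86, 5.42 and 5.78 CPM in treated cells, a 6.86-fold fall (log2FC -2.78, SE 0.13, adjusted p 1.95e-13). XRCC3 and RAD51C, which form a complex of their own, were 5.83-fold and 2.98-fold lower. RAD51B (chromosome 14, 67819779 to 68730218) was at 17.7, 19.8 and 19.6 CPM in untreated and 17.8, 19.4 and 16.4 CPM in treated cells, groups that overlapped (log2FC -0.13, SE 0.13, adjusted p 0.404).
Of the filament partners, RAD54L (ENSG00000085999, chromosome 1, 46247688 to 46278473), the motor protein that drives strand invasion, fell from 18.7, 17.5 and 16.0 CPM to 3.63, 3.66 and 3.33 CPM (log2FC -2.33, SE 0.10, adjusted p 4.54e-14). RAD54B, its relative, went from 7.61, 8.49 and 8.28 CPM to 4.23, 4.76 and 4.59 CPM (log2FC -0.88, SE 0.11, adjusted p 6.39e-07), a smaller fall with groups that stayed apart. RAD51AP1, which stabilizes the invading strand, was 3.21-fold lower.

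The genes that recognize and cut back broken ends held the largest fall and one of the smallest. EXO1 (ENSG00000174371, chromosome 1, 241847967 to 241895148), the exonuclease of long-range resection and the first promoter shown above, went from 61.4, 67.4 and 71.9 CPM to 7.76, 9.22 and 9.79 CPM, a 7.67-fold fall (log2FC -2.94, SE 0.12, adjusted p 3.66e-14). RBBP8, the cofactor that starts resection, was 3.08-fold lower. The 3 subunits of the complex that first binds the ends moved far less. NBN was 1.52-fold and MRE11 1.502-fold lower, and RAD50 (chromosome 5, 132556019 to 132646344) was at 80.1, 92.4 and 87.8 CPM in untreated and 71.4, 79.2 and 76.9 CPM in treated cells. Its libraries did not overlap, but the change missed the threshold (log2FC -0.23, SE 0.10, adjusted p 0.0571). With the replicate number as a block RAD50 passed it (-0.23, adjusted p 0.0132).
The helicases both fell. BLM, which unwinds recombination intermediates, went from 45.1, 52.0 and 56.0 CPM to 9.05, 11.8 and 11.3 CPM (log2FC -2.28, SE 0.12, adjusted p 1.30e-12), and BRIP1 from 35.04, 41.8 and 49.0 CPM to 16.9, 19.5 and 20.9 CPM (log2FC -1.17, SE 0.13, adjusted p 6.28e-08).

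In the Fanconi core complex 7 of 8 genes were lower and 1 was higher. FANCB (ENSG00000181544, chromosome X, 14835961 to 14873069) fell 7.36-fold, from 14.9, 18.6 and 23.0 CPM to 2.29, 2.38 and 3.19 CPM (log2FC -2.88, SE 0.19, adjusted p 2.49e-11). FANCA was 4.04-fold, FANCM, the translocase that anchors the complex, 2.73-fold, FANCG 2.17-fold and FANCE 1.83-fold lower, and FANCL, the ubiquitin ligase itself, 1.40-fold and FANCC 1.34-fold. With library size alone both missed the threshold (log2FC -0.22, adjusted p 0.140 for FANCL and -0.16, adjusted p 0.0594 for FANCC), and so did FANCL without untreated replicate 3 (-0.30, adjusted p 0.0637). FANCF (chromosome 11, 22622890 to 22625841), an adaptor within the complex, was at 10.2, 9.31 and 9.34 CPM in untreated and 10.8, 12.4 and 13.1 CPM in treated cells. That rise was small (log2FC 0.30, SE 0.13, adjusted p 0.0445) and was past the threshold only with all libraries of replicates 2 and 3 in the fit. Without replicate 3, its adjusted p was 0.247.
Both targets of the core complex fell. FANCI (ENSG00000140525, chromosome 15, 89243949 to 89317261) went from 176, 183 and 185 CPM to 40.2, 43.7 and 47.8 CPM (log2FC -2.08, SE 0.08, adjusted p 1.44e-14), and FANCD2 from 61.0, 60.6 and 59.3 CPM to 16.9, 18.6 and 20.8 CPM (log2FC -1.72, SE 0.09, adjusted p 4.76e-13).
Among the checkpoint genes, CHEK1, the kinase that ATR activates, fell from 66.8, 69.5 and 74.5 CPM to 25.4, 26.5 and 26.6 CPM (log2FC -1.46, SE 0.08, adjusted p 2.99e-12). TOPBP1, the activator of ATR, was 2.72-fold, ATR 2.09-fold and CHEK2 1.71-fold lower. ATM, the kinase for double-strand breaks, was at 24.8, 31.7 and 32.8 CPM in untreated and 24.0, 30.8 and 21.4 CPM in treated cells, which overlapped (log2FC -0.26, SE 0.17, adjusted p 0.198 and, with the replicate block, 0.0485). MSH6, the mismatch recognition protein, fell from 8.25, 8.97 and 10.6 CPM to 3.30, 3.82 and 3.19 CPM (log2FC -1.46, SE 0.12, adjusted p 6.57e-10).

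**Figure D2:**
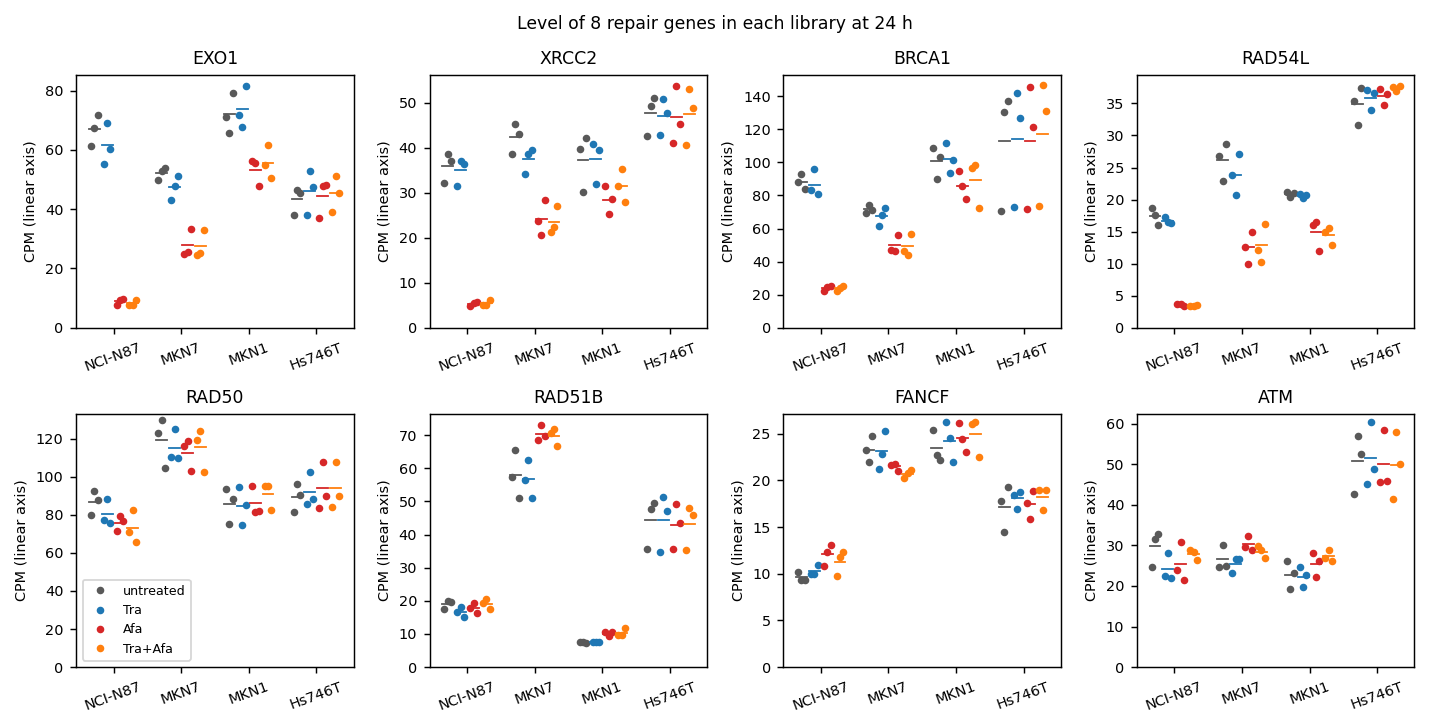
Points are the TMM-scaled CPM of 8 repair genes in each library at 24 h (linear axis from 0), in the 4 cell lines and for untreated cells, Tra, Afa and Tra + Afa, and bars are means of 3. In NCI-N87 cells EXO1 drops from 61.4 to 71.9 CPM in untreated cells to 7.76 to 9.79 CPM with afatinib, while RAD50 and ATM move little and RAD51B is higher with afatinib in MKN7 and MKN1 cells.

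In MKN7 cells the same comparison gave smaller changes. After 24 h of afatinib 25 of the 34 genes were lower (25% of all genes), RAD51B was higher (26.6%) and only RAD54L was regulated downward (3.25%). The median log2FC of the 34 genes was -0.51, against 0.04 over all genes, and the libraries of both groups stayed apart with the treated ones below in 29 genes and above in 2. RAD54L, the one member regulated in more than 1 line, was at 26.8, 22.8 and 28.7 CPM in untreated and 12.7, 9.99 and 15 CPM in treated cells (log2FC -1.06, SE 0.15, adjusted p 6.91e-06). The value stayed between -1.24 and -0.92 over the alternatives, so its place past -1 was not stable: 0 genes were regulated without afatinib replicate 2, 0 without untreated replicate 3 and 4 without afatinib replicate 3.
EXO1, FANCA and CHEK1 followed with folds of 1.88, 1.88 and 1.86. RAD51B was at 57.4, 65.4 and 51.2 CPM in untreated and 68.4, 73.1 and 69.8 CPM in treated MKN7 cells, all above the untreated ones (log2FC 0.27, SE 0.09, adjusted p 0.0114), but without replicate 3 its adjusted p was 0.119, without untreated replicate 3 alone 0.0852 and without replicate 1 0.0812. FANCC, FANCF, FANCL, RAD50, MRE11, ATM, ATR and CHEK2 did not pass the test. Of these, ATR, CHEK2 and MRE11 were lower with the replicate block (adjusted p 0.00566, 0.0440 and 0.0107), and FANCC was higher with library size alone (log2FC 0.26, adjusted p 0.00736) and with at least 10 counts in every library (0.18, adjusted p 0.0269). Library size alone left 20 genes lower in place of 25. All 29 replication genes and all 24 mitosis genes were lower here too (medians -0.68 and -0.74).

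In MKN1 cells 14 of the 34 genes were lower after 24 h of afatinib (13.3% of all genes) and RAD51B was higher (12.2%), with a median log2FC of -0.24 over the 34 genes and 0.01 over all genes. The groups of libraries overlapped in 20 genes. FANCI, which fell most, was at 128, 118 and 195 CPM in untreated and 87.2, 85.3 and 75.5 CPM in treated cells. Untreated replicate 3 stood above the other untreated libraries here, and the log2FC of -0.85 (SE 0.21, adjusted p 0.00227) became -0.59 (adjusted p 0.0542) without it. RAD54L (log2FC -0.50, SE 0.09), FANCA (-0.54, SE 0.12) and EXO1 (-0.46, SE 0.09) were also lower. RAD51B rose from 7.61, 7.497 and 7.30 CPM to 10.6, 9.34 and 10.5 CPM (log2FC 0.42, SE 0.11, adjusted p 0.00543), with an adjusted p of 0.0807 without replicate 1 and 0.0740 without replicate 3.
All 4 genes of the BRCA1 complex missed the threshold in MKN1 cells (BRCA1 log2FC -0.25, SE 0.12, adjusted p 0.143). With the replicate block 21 genes passed it, adding BRCA1, RAD51C, FANCD2, FANCE, FANCG and ATR (adjusted p 0.0303, 6.1e-04, 0.0163, 0.0479, 0.0306 and 0.0103). Without replicate 3 the count fell from 15 to 3, without replicate 1 to 7, without afatinib replicate 3 to 9 and without untreated replicate 3 to 8. In MKN1 cells 23 of 30 replication genes and 19 of 24 mitosis genes were lower.
In the 3 lines together, 14 genes were lower in each: BLM, CHEK1, EXO1, FANCA, FANCB, FANCI, NBN, RAD51AP1, RAD54B, RAD54L, RBBP8, TOPBP1, XRCC2 and XRCC3. Of these 14, all were also lower in each line with the replicate block and in DESeq2, 8 with library size alone (without NBN, RAD51AP1, RBBP8, TOPBP1, XRCC2 and XRCC3), 6 with only the compared groups in the fit, and 7, 12 and 3 without replicates 1, 2 and 3. FANCA, FANCI and RAD54L were lower in each line under all 10 alternatives that could be set in the lines together (other scalings, tools and filters, the block and each replicate left out), although FANCI missed the threshold in MKN1 cells without untreated replicate 3 alone. Another 11 passed the test in NCI-N87 and MKN7 cells and missed it in MKN1 cells, and 0 in MKN7 or MKN1 cells without NCI-N87. The share of all genes lower in the same lines together was not counted, so the 14 and the 11 cannot be set against it.
The remaining 5 genes lower in NCI-N87 cells, ATR, CHEK2, FANCC, FANCL and MRE11, missed the threshold in both other lines. With the replicate block ATR passed it in both, and CHEK2 and MRE11 in MKN7 cells. Tested as a difference from MKN7 cells, the change in NCI-N87 cells was lower for ATR, CHEK2 and FANCC (adjusted p 5.44e-05, 4.41e-04 and 4.61e-05), while FANCL and MRE11 missed the threshold (0.0589 and 0.271). From MKN1 cells it differed for ATR, CHEK2, FANCC and MRE11 (adjusted p 2.24e-04, 6.63e-06, 0.00387 and 0.0483), while FANCL missed it (0.0980). Across the 34 genes, the log2FC in NCI-N87 and MKN7 cells, which share no library, had a Pearson's r of 0.76 and a Spearman's rho of 0.77, and those in MKN7 and MKN1 cells 0.81 and 0.81. These are descriptions over genes of one pathway, which are not independent replicates.

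In Hs746T cells 0 of the 34 genes passed the test after afatinib at 4 h or 24 h. At 24 h the values ran from -0.11 (FANCI) to 0.12, with a median of 0.00, and EXO1 was at 38.2, 46.6 and 45.6 CPM in untreated and 37.2, 47.8 and 48.1 CPM in treated cells. Over the 10 comparisons of Hs746T cells for afatinib, Tra + Afa, EGF, cetuximab and EGF + Cet, edgeR and DESeq2 called 0 of 340 tests on repair genes, and 0 had an unadjusted p below 0.05. Of all genes, 0% were called in those comparisons too.

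The difference between the cell lines was tested directly by the interaction of line and afatinib at 24 h. The change in NCI-N87 was lower than that in MKN7 cells for 23 genes (12.7% of all genes), most of all for FANCB (difference in log2FC -2.18, SE 0.19, adjusted p 2.74e-17), XRCC3 (-2.09, SE 0.30) and EXO1 (-2.001, SE 0.18). It was higher for FANCF (0.45, SE 0.15, adjusted p 0.0169, with 8.69% of all genes higher). RAD54B is the plainest exception, with log2FC of -0.88 and -0.76 in these lines and a difference of -0.09 (SE 0.18, 95% interval -0.44 to 0.26). Without replicate 3 in any group, 15 genes differed in either direction instead of 24.
Against MKN1 cells the change in NCI-N87 cells was lower for 30 genes (15.9%). Between MKN7 and MKN1 cells it was lower for 4 genes (3.94%): CHEK1, RAD54L, FANCG and TOPBP1 (differences -0.62, -0.57, -0.54 and -0.37). Between MKN1 and Hs746T cells it was lower for 3 (2.41%): FANCI, RAD54L and FANCA (-0.74, -0.54 and -0.51). With the replicate block, the change was lower for 14 genes in MKN7 than in MKN1 cells, and lower for 11 and higher for 1 in MKN1 than in Hs746T cells. Whether replicate numbers pair libraries of different lines was not checked. When a replicate was left out, each comparison gave between 0 and 2 genes.

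Adding afatinib to trastuzumab gave the same comparison in libraries that share none with the one above. In NCI-N87 cells 29 genes were lower in Tra + Afa than in Tra cells at 24 h (30.3% of all genes), all of them among the 30 named before, and FANCL was the exception (log2FC -0.25, SE 0.13, adjusted p 0.101). EXO1 was at 55.4, 68.9 and 60.4 CPM with trastuzumab and 7.61, 7.79 and 9.41 CPM with both drugs (log2FC -2.92, SE 0.12, adjusted p 4.44e-14). FANCF did not pass here (log2FC 0.12, SE 0.13, adjusted p 0.447), and its libraries were at 9.95, 9.96 and 10.9 against 9.75, 11.8 and 12.4 CPM.
In MKN7 cells 24 genes were lower (21.6%), all of them among the 25, and RAD51B was higher again (22.8%), at 56.5, 62.5 and 51.1 against 70.5, 71.8 and 66.7 CPM (log2FC 0.28, SE 0.09, adjusted p 0.0117). RAD54L did not reach -1 (log2FC -0.91, SE 0.15).
In MKN1 cells 13 genes were lower (14.9%), 10 of which were lower with afatinib alone too, and RAD51B was higher (12.9%), from 7.51, 7.53 and 7.46 to 9.63, 9.73 and 11.8 CPM (log2FC 0.44, SE 0.11, adjusted p 0.00344). Scaling by library size alone gave 5 lower and 3 higher genes there, and without replicate 3 the count was 3.
Over the 34 genes, the 2 comparisons had a Pearson's r of 0.99 in NCI-N87, 0.98 in MKN7, 0.93 in MKN1 and 0.19 in Hs746T cells (a description across genes). Trastuzumab alone left 0 of 272 tests past the threshold over 4 lines and 2 times in edgeR and in DESeq2 (0% of all genes), 3 had an unadjusted p below 0.05, and log2FC ran from -0.31 to 0.15.

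**Figure D3:**
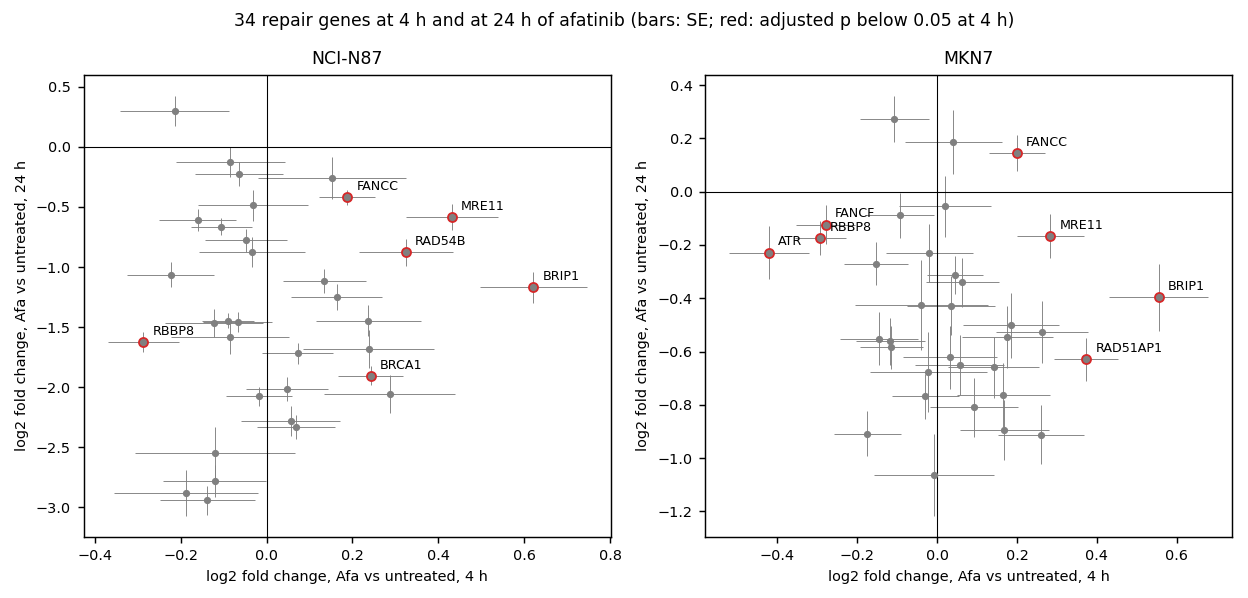
Each point is 1 of the 34 repair genes in NCI-N87 (left) and MKN7 cells (right), with its log2 fold change for afatinib against untreated cells at 4 h on the x axis and at 24 h on the y axis, bars being standard errors and red rings an adjusted p below 0.05 at 4 h. BRIP1 lies farthest to the right in both lines (0.62 and 0.56) and below 0 at 24 h.

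At 4 h fewer repair genes passed the test than at 24 h in NCI-N87, MKN7 and MKN1 cells. They were 6 of 34 in NCI-N87 (3465 of all 19078 genes) and 7 of 34 in MKN7 cells (4103 of 18483), near the share over all genes. In NCI-N87 cells 5 genes were higher (9.06% of all genes) and 1 was lower (9.1%). BRIP1 was at 46.4, 40.8 and 45.2 CPM in untreated and 67.6, 64.9 and 70.6 CPM in treated cells (log2FC 0.62, SE 0.12, adjusted p 0.00106), with no overlap. MRE11 followed (log2FC 0.43, SE 0.11), then RAD54B (0.33, SE 0.11), BRCA1 (0.24, SE 0.08) and FANCC (0.19, SE 0.07). RBBP8 was lower (-0.29, SE 0.08, adjusted p 0.0181).
In MKN7 cells 4 genes were higher (10.1%) and 3 lower (12.1%). BRIP1 was again highest in change, at 35.2, 47.6 and 44.5 against 56.8, 71.5 and 64.0 CPM (log2FC 0.56, SE 0.12, adjusted p 0.00235). RAD51AP1 (0.37, SE 0.08), MRE11 (0.28, SE 0.08) and FANCC (0.20, SE 0.07) were higher too, and ATR (-0.42, SE 0.10), RBBP8 (-0.29, SE 0.06) and FANCF (-0.28, SE 0.07) were lower. BRIP1, MRE11 and FANCC were thus higher in both lines.
The counts at 4 h were sensitive. In NCI-N87 cells the 6 became 0 without replicate 2, 2 without replicate 1, 3 without replicate 3 and 3 with only the compared groups in the fit, and in MKN7 cells the 7 became 2 without replicate 1. In the libraries with trastuzumab, 7 genes passed in NCI-N87 (19.7%) and 7 in MKN7 cells (20.5%), which included the same 5 and 4 higher genes. Without replicate 2 these counts were 0 and 4, without replicate 1 they were 2 and 2, and without replicate 3 that of NCI-N87 cells was 1. Scaling by library size alone gave 7 higher and 0 lower genes in NCI-N87 and 5 higher and 2 lower in MKN7 cells for this comparison.
In MKN1 cells 0 genes passed at 4 h (3.68% of all genes), with 2 at an unadjusted p below 0.05 in edgeR and 0 calls in DESeq2, and 0 passed for Tra + Afa against Tra (3.08%), with 1 at an unadjusted p below 0.05 and 0 calls in DESeq2.
The change from 4 h to 24 h was tested as an interaction, chosen after the data were seen. In NCI-N87 cells 29 genes had a lower log2FC at 24 h (20.5% of all genes) and FANCF a higher one (15.3%). All 5 genes that were higher at 4 h were lower than untreated at 24 h, as were 30 of the 34 genes. BRCA1 had a difference of -2.15 (SE 0.11) and BRIP1 one of -1.79 (SE 0.18). These genes were picked by their rise at 4 h, which is part of the difference. Of the 4 genes higher at 4 h in MKN7 cells, BRIP1 and RAD51AP1 were lower at 24 h, and MRE11 and FANCC did not pass the test then. The log2FC in MKN7 cells was lower at 24 h than at 4 h for 23 genes (9.28%) and higher for RAD51B (8.68%). Without replicate 1 or without replicate 2 the total of 24 became 12. In MKN1 cells RAD54L and EXO1 were lower (1.43%), and 10 genes with the replicate block; without replicate 1 or replicate 3 there were 0, and without replicate 2 there were 6.

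EGF and cetuximab act on the receptor that afatinib also inhibits, and MKN1 cells were treated with each. After 24 h of EGF 5 genes were higher (17.3% of all genes) and 6 lower (18.5%), with a median log2FC of 0.08 over the 34 genes. FANCI was at 128, 118 and 195 CPM in untreated and 290, 247 and 338 CPM in EGF-treated cells, with no overlap, and was the only member regulated (log2FC 1.01, SE 0.20, adjusted p 2.31e-04). FANCB (0.47, SE 0.10), FANCE (0.42, SE 0.09), CHEK1 (0.25, SE 0.06) and PALB2 (0.21, SE 0.08) were higher. BRIP1 fell from 17.1, 14.4 and 17.1 CPM to 12.3, 11.1 and 13.2 CPM (log2FC -0.39, SE 0.15, adjusted p 0.0423), and FANCC, FANCL, FANCD2, MRE11 and CHEK2 were lower by -0.34 to -0.21.
The split depended on scaling: DESeq2's size factors gave 7 higher and 5 lower, and library size alone, which moved the median of all genes by -0.20, gave 3 higher and 12 lower. Only 3 genes passed without replicate 1, and 5 with only the compared groups in the fit. In MKN1 cells 14 of 30 replication genes and 5 of 24 mitosis genes were higher after EGF and 0 of either were lower.
At 4 h of EGF, FANCC and FANCE were lower (2.45% of all genes). FANCE, which was higher at 24 h, was at 11.8, 12.3 and 9.11 CPM in untreated and 9.38, 8.28 and 8.01 CPM in EGF-treated cells at 4 h, which overlapped (log2FC -0.36, SE 0.10). With the replicate block 4 genes passed, and 0 without replicate 1 and 1 without replicate 3.

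**Figure D4:**
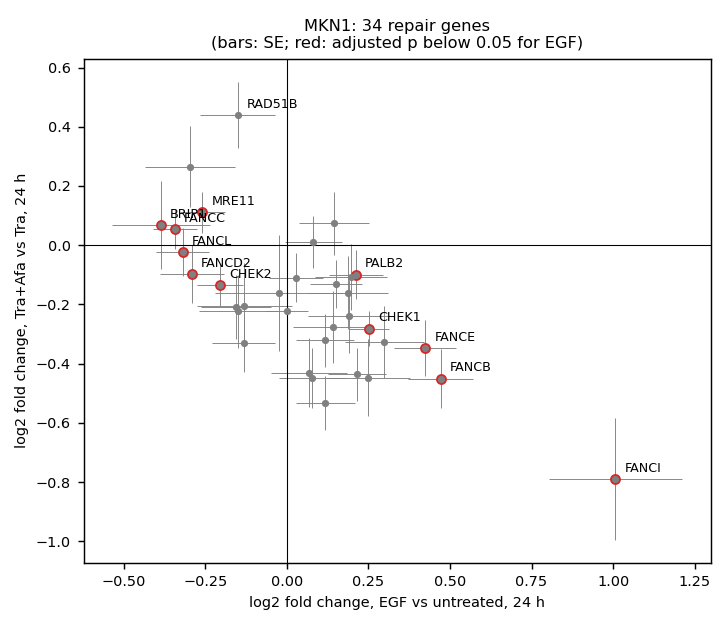
Each point is 1 of the 34 repair genes in MKN1 cells at 24 h, with the log2 fold change for EGF against untreated cells on the x axis and that for Tra + Afa against Tra on the y axis, bars being standard errors and red rings an adjusted p below 0.05 for EGF. FANCI sits alone at the lower right (1.01 and -0.79), and RAD51B is at the top (-0.15 and 0.44).

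The changes by EGF and by adding afatinib to trastuzumab come from different MKN1 libraries. FANCI rose with EGF and fell with Tra + Afa (log2FC -0.79, SE 0.20, adjusted p 0.00383), and so did FANCB, FANCE and CHEK1. Across the 34 genes Pearson's r was -0.69 and Spearman's rho -0.62, and without FANCI they were -0.59 and -0.58 over 33 genes, given as a description.
Cetuximab for 24 h changed 3 genes (10.8% of all genes changed): RAD51B was higher, at 9.38, 11.6 and 10.4 CPM (log2FC 0.46, SE 0.11, adjusted p 0.00675), and RAD54L (-0.34, SE 0.09) and CHEK1 (-0.23, SE 0.06) were lower. With afatinib, whose comparison shares the untreated libraries, their log2FC were 0.42, -0.50 and -0.29. With the replicate block 7 genes passed, with only the compared groups 0, and without replicates 1, 2 and 3 there were 1, 7 and 0. FANCI was at 98.9, 105 and 103 CPM with cetuximab and missed the threshold (log2FC -0.54, SE 0.20, adjusted p 0.0833). Compared with each other at 24 h, a test chosen after the data were seen, afatinib and cetuximab differed in 0 repair genes in edgeR and in DESeq2 (0.0757% of all genes). An unadjusted p below 0.05 in edgeR was reached by 6 of 34 (1457 of all 19815 genes), and 1 passed with the replicate block. The log2FC of afatinib against cetuximab was below 0 in 31 of the 34 (10094 of all genes). Its median was -0.15, against -0.004 over all genes.
At 4 h cetuximab changed 0 repair genes (1.43% of all genes), with 1 at an unadjusted p below 0.05. EGF + Cet against EGF changed 0 at 4 h (0.701%) and 0 at 24 h (0.646%), with 2 at an unadjusted p below 0.05 each time and 1 gene at 24 h with the replicate block. DESeq2 called 0 in these 3 comparisons. With EGF + Cet, FANCI stood at 235, 207 and 281 CPM at 24 h, above every untreated library and overlapping the levels with EGF.

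Without treatment, some repair genes also differed between the time points in MKN1 and MKN7 cells, at shares near or below those of all genes. Between untreated cells at 24 h and at 4 h, 13 genes differed in MKN1 cells (34.1% of all genes), with FANCI lowest (log2FC -0.72, SE 0.20) and RAD51B highest (0.52). There, 7 were lower and 6 higher, against 1 and 11 with library size alone, and 4 genes in all passed without replicate 1. In MKN7 cells 4 differed (16.4%), FANCM and FANCA lower and RAD51C and CHEK2 higher, 13 with the replicate block and 1 without replicate 1 or without replicate 2. With library size alone 1 was lower and 3 were higher. In NCI-N87 cells 0 differed (0.267%), with 3 at an unadjusted p below 0.05 and 0 in DESeq2. In Hs746T cells 0 differed (1.48%), with 5 at an unadjusted p below 0.05, 0 in DESeq2 and 6 with the replicate block.

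**Figure D5:**
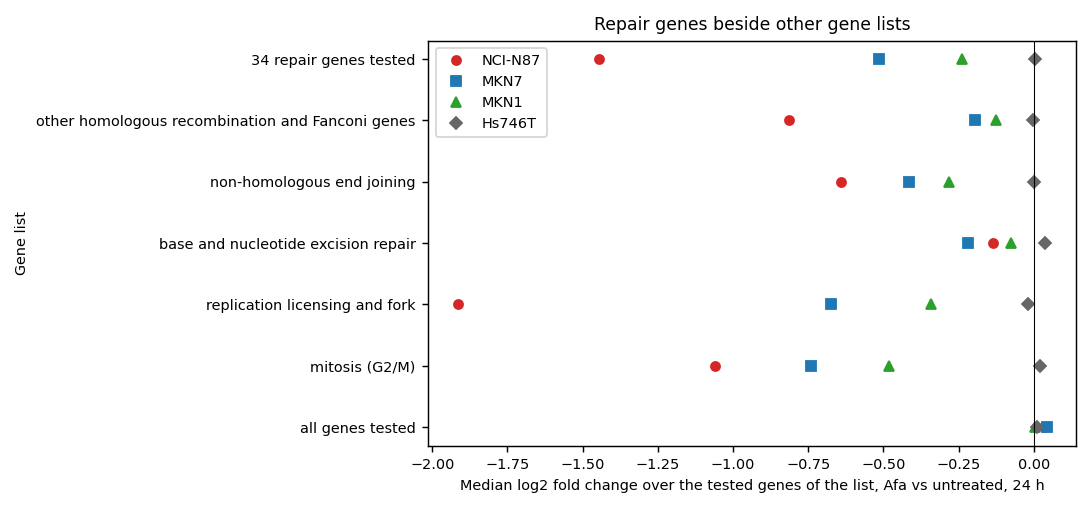
Points are the median log2 fold change for afatinib against untreated cells at 24 h over the tested genes of each list (rows), with 1 symbol per cell line. In NCI-N87 cells the repair genes (-1.45) lie between the replication genes (-1.92) and the mitosis genes (-1.06), and all genes tested lie at 0.03.

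Other DNA repair genes were read from lists chosen by function. In NCI-N87 cells at 24 h of afatinib, where 31% of all genes were lower and 31.5% higher, 30 of 45 other homologous recombination and Fanconi genes were lower and 7 higher (median log2FC -0.81). CLSPN, the adaptor through which ATR activates CHEK1, fell most (log2FC -3.33, SE 0.18, adjusted p 1.50e-12), and ABRAXAS1 (0.55, SE 0.14) and ETAA1 (0.53, SE 0.09) rose.
Of 9 end joining genes 6 were lower and 2 higher (median -0.64), with PRKDC, the DNA-dependent kinase, at -1.69 (SE 0.12) and POLM at 0.36 (SE 0.11). Of 17 genes of base and nucleotide excision repair 8 were lower and 3 higher (median -0.14), with ERCC5 up (log2FC 1.22, SE 0.11) and LIG3 down (-1.20, SE 0.11).
The largest falls in the cell cycle lists were those of MCM10 (-3.62, SE 0.09) and GINS2 (-3.37, SE 0.21) for replication and of CDK1 (-1.82, SE 0.17) and MKI67 (-1.60, SE 0.13) for mitosis. In MKN7 cells the medians were -0.20, -0.42 and -0.22 for the 3 repair lists in this order, with 21, 6 and 9 genes lower (25% of all genes), and in MKN1 cells they were -0.13, -0.28 and -0.08, with 10, 3 and 3 genes lower (13.3% of all genes). In Hs746T cells 0 genes of these lists passed the test. The medians describe these lists, and no list was tested against another.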

How the data were processed

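Poly(A) RNA was sequenced from directional libraries. The authors trimmed and aligned the reads (Trim Galore, STAR and build hg38 are named in the submitters' processing notes) and deposited raw gene counts, 1 file of Ensembl identifiers for every library. Versions, counter and strand setting are not given in the sources used here. Symbols, positions and exon lengths came from GENCODE 29 (GRCh38), and promoters from RefSeq (GRCh38.p14). In GENCODE 29, 8404 identifiers with 0.0422% of the counts were absent.

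Counts were fitted per cell line in edgeR 4.0.16 (R 4.3.3; TMM, filterByExpr with a minimum count of 10 and minimum total of 15, glmQLFit and glmQLFTest, 1 mean per treatment and time), and across lines for interactions and untreated cells. P-values were adjusted by Benjamini-Hochberg over all genes of a fit. A gene was called regulated past both an adjusted p of 0.05 and a log2FC of 1 in either direction. Intervals are the log2FC with its SE on a normal scale. Scripts were tested on simulated data. Alternatives were DESeq2 1.42.0, its size factors in edgeR, library size alone, other filters, the compared groups only, the replicate block and leaving out replicates.

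Replicate numbers come from the labels. Deviations of same-numbered libraries correlated above 0.1 in every comparison checked except Tra + Afa against Tra in MKN1 cells at 24 h (lowest r -0.00902). Elsewhere within a line the numbers may thus pair the samples. Same-numbered libraries of different lines were not checked, so it is not known whether the block pairs them. The reported calls did not use this pairing, which enters only in the alternative with the replicate block. The 35 genes and the lists were chosen with earlier results of these data known. Within each role, per-library values were given for the genes with the largest and the smallest change in NCI-N87 cells, for those against the common direction and for those regulated in more than 1 line; of other lists, at most 2 rises and 2 falls. Further genes were named after their values were seen. A list of mismatch repair genes is not reported here.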

Additional observations from a re-analysis of the deposited data

Results flagged for a closer look

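Afatinib effects on the repair genes that differed between cell lines or between time points, each by a test of the difference itself in edgeR, are listed here with the number of genes past an adjusted p of 0.05 in either direction. Between cell lines at 24 h the effect differed for 30 of 34 repair genes in NCI-N87 against MKN1 cells (6389 of all 22832 genes). It differed for 24 in NCI-N87 against MKN7 cells (4876 of all genes) and for 4 in MKN7 against MKN1 cells (1737). For MKN1 against Hs746T cells it differed for 3 (1008). Between 24 h and 4 h it differed for 30 genes in NCI-N87 (6827 of all 19078), for 24 in MKN7 (3321 of 18483) and for 2 in MKN1 cells (549 of 19815). Dixon's criterion was not applied to groups of 3 libraries.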

How the results depend on the processing

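Of the counts of repair genes past a threshold, 446 values under the alternatives stayed within 1.5 times the reported count and 72 did not. The balance of higher and lower genes turned for EGF at 24 h in MKN1 cells (6 lower and 5 higher as reported) with DESeq2's size factors (5 and 7), in DESeq2 (6 and 7) and with the replicate block (7 and 8), and for untreated MKN1 cells between times with library size alone (from 7 and 6 to 1 and 11). For single genes after 24 h of afatinib in NCI-N87, MKN7 and MKN1 cells, 1499 values kept their call, 97 lost it and 36 gained it. The counts in NCI-N87 cells at 24 h stayed within 1.5 times under every alternative. The causes of the changes below were not tested. Below, a cell line against another, and 24 h against 4 h, stand for a difference in the afatinib effect. They do not stand for comparisons of untreated cells, which are named as such.
With only the compared groups in the fit, which leaves fewer samples for the spread, afatinib gave 3 genes in NCI-N87 cells at 4 h and 7 in MKN1 cells at 24 h, Tra + Afa against Tra gave 1 in NCI-N87 cells at 4 h and 8 in MKN1 cells at 24 h, EGF gave 0 at 4 h and 5 at 24 h, cetuximab gave 0 at 24 h, untreated MKN7 cells gave 0 between times, MKN7 against MKN1 cells gave 1, MKN1 against Hs746T cells 0 and 24 h against 4 h in MKN1 cells 0.
With library size alone, afatinib gave 9 genes in MKN1 cells and 0 regulated genes in MKN7 cells at 24 h, Tra + Afa against Tra gave 8 in MKN1 cells at 24 h, EGF gave 6 at 4 h, MKN7 against MKN1 cells gave 2 and MKN1 against Hs746T cells 1. Without a filter on low counts, afatinib at 4 h gave 4 genes in MKN7 and 3 in NCI-N87 cells, Tra + Afa against Tra gave 2 in NCI-N87 cells at 4 h, EGF gave 0 at 4 h, MKN7 against MKN1 cells gave 2 and 24 h against 4 h in MKN1 cells 0. DESeq2 gave 5 in the last of these.
With the replicate block, EGF at 4 h gave 4 genes, cetuximab at 24 h 7, EGF + Cet against EGF at 24 h 1, afatinib against cetuximab 1, untreated cells between times 13 in MKN7 and 6 in Hs746T, MKN7 against MKN1 cells 14, MKN1 against Hs746T cells 12, and 24 h against 4 h in MKN1 cells 10. For Tra + Afa against Tra in MKN1 cells at 24 h, where the numbers share no more than a number, the block gave 17 in place of 14. The block moved no other count by over 1.5 times.
Leaving out libraries gave 2 to 5 genes for afatinib at 4 h in MKN7 and 0 to 3 in NCI-N87 cells, 3 to 22 at 24 h in MKN1 cells and 0 to 4 regulated genes in MKN7 cells. For Tra + Afa against Tra it gave 2 to 6 in MKN7 and 0 to 2 in NCI-N87 cells at 4 h and 3 to 19 in MKN1 cells at 24 h. It gave 0 to 2 for EGF at 4 h, 3 to 12 at 24 h, 0 to 7 for cetuximab at 24 h, 4 to 11 for untreated MKN1 and 1 to 5 for untreated MKN7 cells between times, 15 to 27 for NCI-N87 against MKN7 cells, 0 to 2 for MKN7 against MKN1 cells, 0 to 2 for MKN1 against Hs746T cells, 12 to 19 for 24 h against 4 h in MKN7 cells and 0 to 6 in MKN1 cells.
The E2F share of promoters fell from 21.9% to 6.25% with the shorter window. With 3 libraries a group, small changes such as those of RAD51B and FANCF are at the limit of what these counts separate.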
